A study of Mus musculus with 8 samples.

Results

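The replication-dependent histone genes were followed in medulloblastomas of 15-day-old mice with and without Bcl2l1. A gene was a member if a probe set named it alone and its symbol began with H1f, H2ac, H2bc, H3c or H4c and a digit, the current symbols of the Hist1h to Hist4h genes. Of 22180 genes measured, 29 met this rule: 8 of class H1, 6 of H2A, 8 of H2B and 7 of H4. Of the 15526 genes bright enough to be tested, 21 were members. No H3 gene had a probe set of its own, and 37 histone genes that met the rule by symbol were named only by probe sets shared with other genes, which are described separately. The rule by symbol also took in genes that are not replication-dependent, among them the linker variants H1f10, H1f8 and H1f7, and the testis genes H1f6, H2ac1 and H2bc1. This list of exceptions may not be complete.

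The tested mice were Math1-Cre/SmoM2/Bcl2l1 f/f, in which Cre also removes Bcl2l1, which encodes BCL-xL, a protein that holds back apoptosis. The controls were Math1-Cre/SmoM2, and all 8 mice thus carried Cre under the Math1 (Atoh1) promoter, which is active in granule neuron precursors, and SmoM2, an active form of the hedgehog signal transducer Smoothened. Cells of the tumour tissue outside the Math1 lineage keep Bcl2l1 in both groups. Tumours were taken without treatment at 15 days of age, 4 arrays per group, and the series' design speaks of separate animals.

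Replication-dependent histones package new DNA. Their genes stand in clusters, have no introns and are transcribed in S phase through the coactivator NPAT, and their mRNAs end in a stem-loop bound by SLBP in place of a poly(A) tail. In the young cerebellum the dividing cells are mainly granule neuron precursors, the cells from which this tumour arises, and the level of histone mRNA is commonly read as a sign of S phase. Replication-independent variants, by contrast, are made throughout the cell cycle from polyadenylated mRNAs. The labelling kit was of the whole-transcript type, which primes along the RNA and needs no poly(A) tail.

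All values are log2 RMA expression values, and a level can be compared between arrays for 1 probe set but not between probe sets. Array medians over all probe sets lay between 4.77 and 5.17, and 4 arrays per group limit the precision. Bcl2l1 itself was at 5.48 ± 0.15 in Bcl2l1-deleted tumours and 6.84 ± 0.19 in control tumours (SD, n = 4 each), a difference of -1.36 (SE 0.16, limma adjusted p = 0.00509). Control replicate 2 stood apart: it correlated at 0.881 to 0.925 with the other arrays, which correlated among themselves at 0.956 or more, and it had the lowest value of all arrays for 54.6% of the tested genes. The median level of olfactory and vomeronasal receptor genes, which brain tumours hardly express, was 2.79 to 2.92 on Bcl2l1-deleted arrays and 2.94 to 3.60 on control arrays, and the interquartile range of gene values was 3.59 to 3.66 on Bcl2l1-deleted arrays and 2.40 to 3.50 on control arrays. Both had an exact two-sided permutation p of 0.0286, the smallest that 70 regroupings allow, and their part in the gene results was not tested beyond a fit with the receptor median as a covariate. Xist was at 10.08, 9.63, 4.91 and 4.70 on Bcl2l1-deleted arrays and at 10.54, 9.89, 4.53 and 10.33 on control arrays. Its high and low arrays were thus not evenly split between the groups (exact permutation p = 0.371). A fit with Xist as a covariate was 1 of the alternatives. Counts of histone members called are given with and without control replicate 2, and so are the differences of some genes. Granule neuron precursor markers were present in both groups, with a mean level over 12 genes of 9.77 to 9.99 in Bcl2l1-deleted tumours and 9.42 to 10.04 in control tumours.

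Of the 21 tested histone genes 0 changed at an adjusted p of 0.05 over all genes (limma), in either direction, beside 6.52% of all tested genes, 4.93% higher and 1.6% lower. At an unadjusted p of 0.05 the count was 6 of 21 (28.6%), beside 30.5% of all genes. A plain linear model without shrinkage called 0 members after adjustment and 0.277% of all genes. The 6 were H2bc21, H4c14, H2ac20, H1f8, H4c9 and H2bc9, and the same 6 were past an adjusted p of 0.10, which 17.8% of all genes passed. H1f8 was bright enough to be tested only through its control values. The groups did not overlap for 3 members (14.3%), all higher in Bcl2l1-deleted tumours, beside 19% of all genes. The fitted differences ran between -0.63 and 1.14, with a median of 0.06 for the members and of 0.17 for all tested genes. Of the 21, 14 were fitted above 0 and 7 above the median tested gene. Small differences therefore turn with the scaling: with arrays centred on the genes tested, the median was -0.20 for the members and -0.09 for all genes. The 6 named kept their sign in each of the 24 alternative settings in which they were tested, with H2bc21 between 0.33 and 0.76, H4c14 between 0.37 and 1.36, H4c9 between 0.51 and 0.94 and H1f8 between -0.88 and -0.42.

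Without control replicate 2, 4 members were past the threshold (19%), all higher in Bcl2l1-deleted tumours, beside 8.95% of all genes called higher and 4.57% called lower. They were H1f1, H2bc21, H4c14 and H4c9. The median difference was then 0.14 for the members and 0.08 for all genes. Leaving out control replicate 1 in its place called H4c9 alone of the 21, at 0.92 (adjusted p = 0.04), beside 12.9% of all genes. Leaving out any of the other 6 arrays called 0 members, beside 0.129% to 2.97% of all genes. In bulk tumour tissue, a change in the number of cells that make a histone mRNA and a change of that mRNA per cell cannot be told apart.

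**Figure D1:**
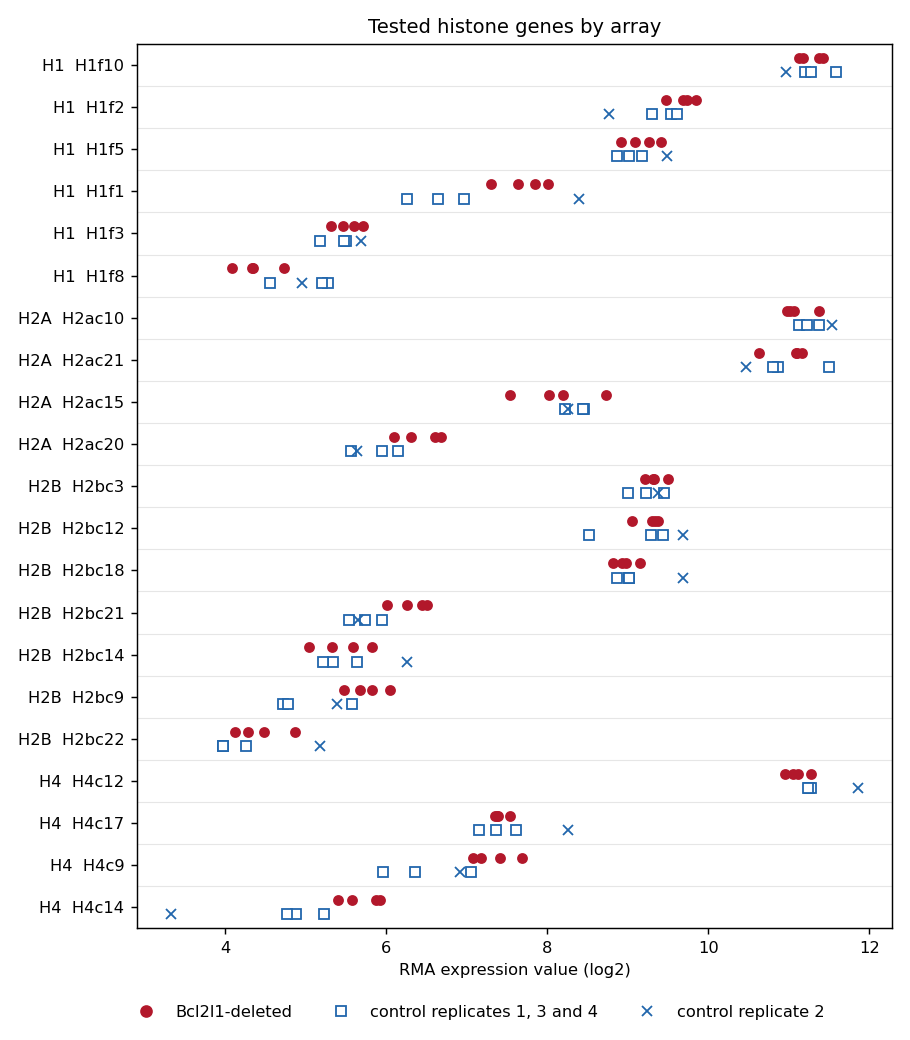
RMA expression value (log2, horizontal axis) of each of the 21 tested histone genes on each array. Filled circles are the 4 Bcl2l1-deleted tumours, open squares control replicates 1, 3 and 4, and crosses control replicate 2. The groups stand apart for H2bc21, H4c9 and H4c14 and overlap for the other 18 genes.

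Among the core histones, the H2A and H2B genes of the chromosome 3 cluster held a pair with like differences. H2bc21 (older symbol Hist2h2be), which encodes an H2B, had 6.44, 6.25, 6.51 and 6.01 in Bcl2l1-deleted tumours, against 5.54, 5.65, 5.74 and 5.94 in control tumours. Its lowest Bcl2l1-deleted value lay just above the highest control value, that of replicate 4. The difference was 0.58 (SE 0.16, adjusted p = 0.0572), and without control replicate 2 it was 0.56 (adjusted p = 0.0432). H2ac20 (Hist2h2ac), the H2A gene that is transcribed away from H2bc21, had 6.60, 6.10, 6.30 and 6.68 in Bcl2l1-deleted tumours, against 5.94, 5.63, 6.15 and 5.56 in control tumours. Control replicate 3 overlapped the lowest Bcl2l1-deleted array. H2ac20 differed by 0.60 (SE 0.19, adjusted p = 0.0768) and did not pass with any of the 24 alternative settings tried. A brighter probe set, 17400545, names H2ac20 together with H2ac18 and H2ac19. It differed by -0.07 (limma with the shared probe sets added, adjusted p = 0.714), so the difference of H2ac20 rests on its own probe set.

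The other members on chromosome 3 did not share one direction. H2ac21 (Hist2h2ab), an H2A gene, had 11.16, 11.10, 10.63 and 11.09 in Bcl2l1-deleted tumours, against 10.86, 10.47, 11.50 and 10.80 in control tumours. Its groups overlapped, and it differed by 0.09 (adjusted p = 0.807), and by -0.06 without control replicate 2 (adjusted p = 0.859). H2bc18 (Hist2h2bb), an H2B gene, differed by -0.18 (adjusted p = 0.534), with control replicate 2 the highest array at 9.69. Without that array the rounded difference was 0 (adjusted p = 0.995). The fifth member, H4c14, is given with the H4 genes. The median difference was 0.58 for the 5 chromosome 3 members and 0.05 for the 14 tested members on chromosome 13, a description with no test.

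The H2A and H2B genes of the large chromosome 13 cluster mostly differed little. H2bc9 (Hist1h2bh) had the largest difference of them, with 6.04, 5.47, 5.67 and 5.82 in Bcl2l1-deleted tumours, against 4.71, 5.39, 5.57 and 4.78 in control tumours. Control replicates 1 and 4 were low and control replicate 3 lay within the Bcl2l1-deleted range. The difference of 0.64 (SE 0.22) had an adjusted p of 0.0943. H2ac10 (Hist1h2af), the H2A member of the highest mean value, had 11.37, 11.02, 11.06 and 10.98 in Bcl2l1-deleted tumours, against 11.13, 11.54, 11.38 and 11.22 in control tumours. Only Bcl2l1-deleted replicate 1 reached into the control range, and the difference of -0.21 (95% interval -0.56 to 0.14) had an adjusted p of 0.37.

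H2ac15 (Hist1h2ak) had 8.73, 8.02, 8.20 and 7.53 in Bcl2l1-deleted tumours, against 8.45, 8.26, 8.44 and 8.22 in control tumours. It was one of only 2 tested members whose spread was larger in the Bcl2l1-deleted group, and its difference was -0.22 (adjusted p = 0.508). The H2B genes H2bc3, H2bc12, H2bc14 and H2bc22 differed by 0.07, 0.04, -0.16 and 0.09, with adjusted p between 0.661 and 0.928. Without control replicate 2 their differences were 0.11, 0.19, 0.05 and 0.37, with adjusted p between 0.187 and 0.878. H2bc3 (Hist1h2bb), the H2B member of the highest mean value, had a mean of 9.33 ± 0.12 in Bcl2l1-deleted tumours and 9.26 ± 0.20 in control tumours (SD, n = 4 each), with a 95% interval of the difference of -0.27 to 0.41. Control replicate 2 was the highest array for H2bc12, H2bc14 and H2bc22 and control replicate 4 the lowest for H2bc3 and H2bc12.

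The H4 genes, whose proteins are identical or nearly so, did not share one direction. H4c14 (Hist2h4) had 5.92, 5.57, 5.87 and 5.40 in Bcl2l1-deleted tumours, against 4.88, 3.33, 5.23 and 4.76 in control tumours. All control arrays lay below all Bcl2l1-deleted arrays, and control replicate 2 was far below the other controls. The difference was 1.14 (SE 0.35, adjusted p = 0.0699) with that array and 0.73 (SE 0.17, adjusted p = 0.0249) without it, so its size depended on 1 control.

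H4c9 (Hist1h4i) had 7.41, 7.08, 7.68 and 7.17 in Bcl2l1-deleted tumours, against 7.05, 6.91, 6.36 and 5.96 in control tumours. The groups met without overlapping, and control replicate 4 was lowest. It differed by 0.76 (SE 0.25, adjusted p = 0.0802), and by 0.88 without control replicate 2 (adjusted p = 0.0454). H4c12 (Hist1h4k) had 11.28, 10.95, 11.05 and 11.11 in Bcl2l1-deleted tumours, against 11.25, 11.86, 11.28 and 11.24 in control tumours. Only control replicate 2 stood out, and the difference of -0.31 (SE 0.18) had an adjusted p of 0.244. Without that array the difference of H4c12 was -0.16 (adjusted p = 0.348). H4c17 (Hist1h4m) differed by -0.18 (adjusted p = 0.59), also with control replicate 2 highest, at 8.25, and by 0.04 without it (adjusted p = 0.85).

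The upstream bases of 5 members are printed so that the genes with the larger differences can be read beside genes of the same class with smaller ones. They come from RefSeq's promoter windows (GRCm38.p6), which held 27 of the 29 members, and run 5′ to 3′ on the gene's strand up to its start, without transcribed bases. Capitals mark the CCAAT box, the octamer (ATTTGCAT) and the TATA element, searched on both strands. The TATA element was spelled TATAAA, and letters were matched at any position, so a match need not be a working element. H2ac20 stands for the chromosome 3 pair, and its stretch, at chr3:96220881-96221071 on the minus strand, starts next to H2bc21 and so lies between both genes. H2bc9, at chr13:23543445-23543694 on the minus strand, and H2bc3, at chr13:23746515-23746733 on the plus strand, are H2B genes with a larger and a small difference. H4c9, at chr13:22041363-22041612 on the minus strand, and H4c12, at chr13:21750554-21750803 on the minus strand, are the same for H4.
H2ac20 (between H2ac20 and H2bc21): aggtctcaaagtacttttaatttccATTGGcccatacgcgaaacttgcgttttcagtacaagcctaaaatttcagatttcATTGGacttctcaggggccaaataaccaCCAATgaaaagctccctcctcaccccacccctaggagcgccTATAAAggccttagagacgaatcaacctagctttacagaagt
H2bc9: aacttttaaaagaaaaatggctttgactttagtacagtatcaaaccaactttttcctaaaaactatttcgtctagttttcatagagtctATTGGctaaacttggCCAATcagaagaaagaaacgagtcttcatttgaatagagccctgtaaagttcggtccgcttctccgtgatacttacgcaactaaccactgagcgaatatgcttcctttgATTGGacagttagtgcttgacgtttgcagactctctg
H2bc3: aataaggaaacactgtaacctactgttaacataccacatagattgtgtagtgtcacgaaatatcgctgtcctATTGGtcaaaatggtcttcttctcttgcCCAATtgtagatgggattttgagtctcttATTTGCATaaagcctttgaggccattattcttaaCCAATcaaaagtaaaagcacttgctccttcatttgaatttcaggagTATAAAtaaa
H4c9: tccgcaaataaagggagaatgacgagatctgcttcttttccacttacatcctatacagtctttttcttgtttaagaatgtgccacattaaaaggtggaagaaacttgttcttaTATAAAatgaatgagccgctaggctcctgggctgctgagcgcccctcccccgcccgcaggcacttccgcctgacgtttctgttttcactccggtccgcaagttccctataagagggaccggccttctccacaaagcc
H4c12: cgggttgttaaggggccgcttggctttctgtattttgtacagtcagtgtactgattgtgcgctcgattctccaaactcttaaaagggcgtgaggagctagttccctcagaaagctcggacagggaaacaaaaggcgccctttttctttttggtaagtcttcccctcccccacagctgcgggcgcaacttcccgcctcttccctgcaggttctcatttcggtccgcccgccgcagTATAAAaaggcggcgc

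The H2A and H2B promoters shared elements that were rare in the H4 promoters. CCAAT stood in the 250 upstream bases of 6 of 6 H2A and 7 of 7 H2B entries but in 1 of 6 H4 entries, beside 33.8% of all 32851 promoter windows of that length. The octamer, the known recognition site of OCT1 in H2B promoters, was in 5 of 7 H2B, 3 of 6 H2A and 0 of 6 H4 entries, beside 1.6% of all windows. TATAAA was in 13 of 27 entries, beside 12.4% of all windows. The letters AAACACA, known from H1 promoters, were in 4 of 8 H1 entries and 7 of 27 in all, beside 6.25%. Divergent pairs share bases, so these entries are not independent, and no 2 different motifs overlapped in a member's window. Both H4c9 and H4c12 held TATAAA, near the middle of the stretch in H4c9 and near its end, next to the gene's start, in H4c12. H2bc9 and H2bc3 each held CCAAT 3 times, and of the pair H2bc3 had the octamer. The octamer counted for H2ac20 lies in bases that reach into H2bc21 and are not printed.

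The linker histones of class H1, which bind the DNA between nucleosomes, held the member that control replicate 2 affected most. H1f1 (Hist1h1a) had 7.84, 7.64, 7.30 and 8.01 in Bcl2l1-deleted tumours, against 6.96, 8.39, 6.64 and 6.26 in control tumours. The Bcl2l1-deleted arrays lay above 3 of the controls and below control replicate 2, the highest of all 8. With that array the difference was 0.63 (SE 0.38, adjusted p = 0.275), and without it 1.08 (SE 0.20, adjusted p = 0.0145). H1f2 (Hist1h1c) had 9.74, 9.84, 9.69 and 9.47 in Bcl2l1-deleted tumours, against 9.53, 8.77, 9.61 and 9.30 in control tumours. Control replicate 2 was here the lowest array, and the difference of 0.38 (adjusted p = 0.21) was 0.21 without it (adjusted p = 0.302).

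H1f5 (Hist1h1b), a linker gene of dividing cells, had 9.41, 9.09, 8.91 and 9.26 in Bcl2l1-deleted tumours, against 9.02, 9.49, 9.17 and 8.87 in control tumours. The groups overlapped, with a difference of 0.03 (95% interval -0.36 to 0.42, adjusted p = 0.922). H1f3 (Hist1h1d) differed by 0.06 (adjusted p = 0.822). H1f10, a replication-independent linker histone on chromosome 6, differed by 0.02 (95% interval -0.35 to 0.38, adjusted p = 0.954). H1f8, the oocyte linker histone, had 4.34, 4.73, 4.08 and 4.33 in Bcl2l1-deleted tumours, against 5.27, 4.95, 4.56 and 5.20 in control tumours. Control replicate 3 fell within the Bcl2l1-deleted range. The Bcl2l1-deleted mean of 4.37 lay below the dim limit of 4.38, so H1f8 entered the test only through its control values. Its difference of -0.63 (SE 0.20) had an adjusted p of 0.0779.

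The 8 members below the dim limit were H1f6, H1f7, H2ac1, H2ac12, H2bc1, H4c1, H4c2 and H4c8, and they were not tested. The highest of them was H1f7 at a mean of 4.32 over all arrays, and the lowest tested member was H2bc22 at 4.39. Their group means lay between 1.60 and 4.48 in Bcl2l1-deleted tumours and between 1.63 and 4.53 in control tumours. H1f7, a linker histone of sperm cells, was lower in Bcl2l1-deleted tumours, at 4.10 ± 0.14, than in control tumours, at 4.53 ± 0.26 (SD, n = 4 each), a description without a test. Of the testis germ cell genes 2 were bright enough to test and 0 changed, and the mean level of 8 measured testis genes was 4.71 to 4.97 in Bcl2l1-deleted tumours and 4.72 to 5.44 in control tumours.

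**Figure D2:**
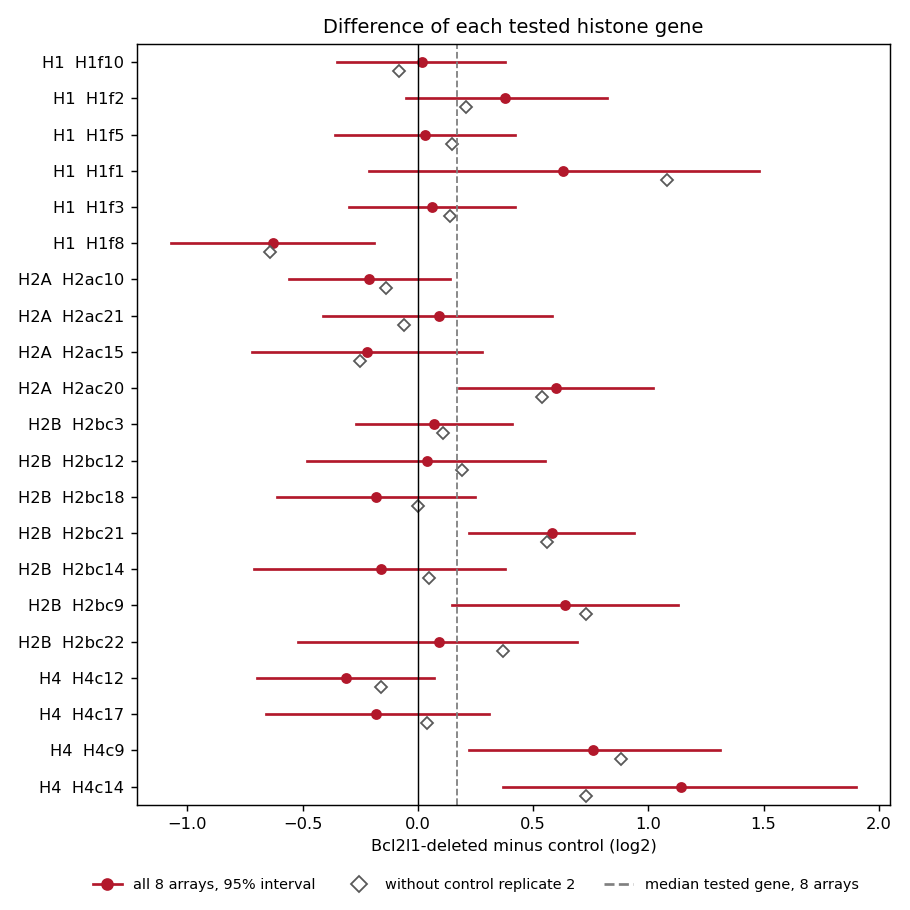
Fitted difference (log2, Bcl2l1-deleted minus control, horizontal axis) of the 21 tested histone genes, with 95% intervals from all 8 arrays (circles and lines) and without control replicate 2 (open diamonds). The dashed line is the median tested gene at 0.17. Intervals of 6 genes leave out 0, and the diamond of H1f1 lies at 1.08 against its circle at 0.63.

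On all 8 arrays the histone genes, like most tested genes, varied more among control tumours than among Bcl2l1-deleted tumours. The control SD was the larger one for 19 of 21 members (90.5%), beside 81.8% of all tested genes, and the median SD was 0.22 in Bcl2l1-deleted tumours and 0.37 in control tumours. Without control replicate 2 the count was 13 of 21 (61.9%, beside 57.4% of all genes) and the median SD was 0.22 in Bcl2l1-deleted tumours and 0.21 in control tumours. Control replicate 2 was the highest array for 9 members and the lowest for 4, whereas over all tested genes it was highest for 14.7% and lowest for 54.6%. Control replicate 4 was the lowest array for 9 members and the highest for 0, beside 7.88% of all genes lowest there. The median deviation of the members from their means over the 8 arrays was 0.20, 0.04, -0.03 and -0.03 on the Bcl2l1-deleted arrays and -0.07, 0.20, 0.03 and -0.30 on the control arrays. The part of these array differences in the gene results was not tested beyond leaving out each array.

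Probe sets that name several genes reached most of the histone genes the rule left out, and 4 genes that met it by symbol were in no probe set. Such probe sets numbered 38, 1 of which names H1f10, already a member, with the predicted gene Gm5577. Of the 38, 35 remained after identical copies were removed and 23 were bright enough to test. Their signal cannot be assigned to 1 gene, and they were fitted together with all genes, where 6.5% of features were called. The 3 called, all higher in Bcl2l1-deleted tumours, were 2 of H3 and 1 of H2B, and the median difference of the 23 was 0.29.

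The H3 probe set 17285842, naming the 8 genes H3c13, H3c6, H3c2, H3c4, H3c3, H3c7, H3c15 and H3c14, had 5.54, 5.47, 6.05 and 5.0 in Bcl2l1-deleted tumours, against 4.61, 4.13, 3.84 and 3.93 in control tumours. All Bcl2l1-deleted arrays were above all controls. It rose by 1.39 (SE 0.24, adjusted p = 0.0162). Its control mean of 4.13 lay below the dim limit of 4.38, so it entered the test only through its Bcl2l1-deleted values. RMA compresses differences at such levels, and the size of this one is uncertain. A second probe set of the same 8 genes, 17408015, had 7.54, 6.99, 7.35 and 6.66 in Bcl2l1-deleted tumours, against 6.57, 4.91, 5.48 and 5.28 in control tumours. Here too the groups did not overlap, with control replicate 1 close to the lowest Bcl2l1-deleted array. It rose by 1.57 (SE 0.33, adjusted p = 0.0267).

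The H2B probe set 17285834, naming H2bc8, H2bc6 and H2bc4, had 7.20, 6.93, 6.81 and 6.11 in Bcl2l1-deleted tumours, against 5.94, 5.31, 5.74 and 4.48 in control tumours. The groups did not overlap, and it rose by 1.39 (SE 0.32, adjusted p = 0.0351). Its second probe set, 17285851, differed by 1.07 (adjusted p = 0.0883), with overlapping groups. Other probe sets of the same 8 H3 genes differed less: 17400555, the brightest at a mean of 8.70, by 0.13 (adjusted p = 0.544), 17291183 by 0.47 (adjusted p = 0.27) and 17400559 by 0.21 (adjusted p = 0.51). The 5 brightest shared probe sets, with means from 11.88 to 12.68, all of H2A or H2B, differed by -0.15 to 0.02. Among them, 17285691 of H2B had all Bcl2l1-deleted arrays just below all controls, with a difference of -0.07 (adjusted p = 0.699). Of the 23 tested, the groups did not overlap for 5 that were higher and 1 that was lower. The share over all genes was 23.4% in either direction.

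The 3 calls depended on the arrays, as did the share of all genes called. Leaving out Bcl2l1-deleted replicate 1 or 2 or control replicate 4 left 0 of the 3, with differences between 1.10 and 1.62, and leaving out Bcl2l1-deleted replicate 3 or control replicate 3 left 17285842 alone. Leaving out Bcl2l1-deleted replicate 4 called the same 3, leaving out control replicate 1 called 5 shared probe sets, and leaving out control replicate 2 called 4. In fits of the genes alone, 12.9% of all genes were called without control replicate 1 and 13.5% without control replicate 2. Fits without any one of the other arrays called 0.129% to 2.97%. With the receptor median as a covariate 17285842 alone passed, and 17408015 differed by 1.06 (adjusted p = 0.0952) and 17285834 by 1.23 (adjusted p = 0.113). With Xist as a covariate, too, 17285842 alone passed. With arrays centred on the genes tested, 17285834 missed it at 1.14 (adjusted p = 0.0643). The plain linear model called 0 of the 23.

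**Figure D3:**
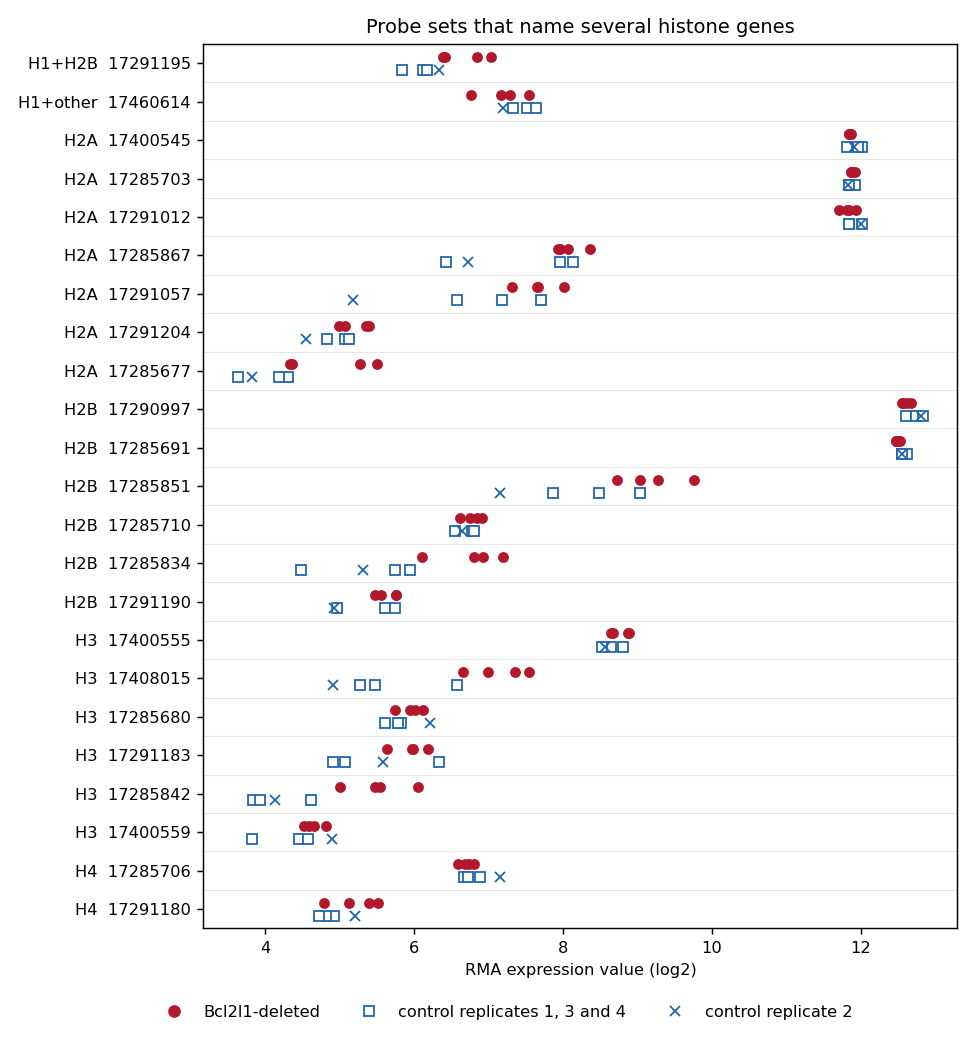
RMA expression value (log2, horizontal axis) of the 23 tested probe sets that name several histone genes, by array. Filled circles are Bcl2l1-deleted tumours, open squares control replicates 1, 3 and 4, and crosses control replicate 2. The 5 brightest probe sets lie within narrow ranges, and 17285842, 17408015 and 17285834 lie higher in the Bcl2l1-deleted tumours.

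The genes that serve histone mRNA and histone transport did not pass the test in the fit of all 8 arrays (limma). Of 18 tested genes for transcription and processing of histone mRNA, 0 changed and 4 had an unadjusted p under 0.05, beside 30.5% of all genes. All 18 were fitted above 0, as were 67.4% of all tested genes, and the median difference was 0.26. Slbp, the stem-loop binding protein, had 9.19, 9.04, 8.51 and 8.99 in Bcl2l1-deleted tumours, against 8.29, 8.77, 8.80 and 8.94 in control tumours. Its groups overlapped, with a difference of 0.23 (adjusted p = 0.422). Npat, the S-phase coactivator of histone genes, had 8.57, 8.61, 8.33 and 8.90 in Bcl2l1-deleted tumours, against 8.23, 6.33, 8.26 and 8.24 in control tumours. Control replicate 2 lay far below the rest, and the difference of 0.84 (adjusted p = 0.169) was 0.36 without it (adjusted p = 0.108). Lsm10, a subunit of the U7 particle that cuts histone pre-mRNA, differed by 0.59 (adjusted p = 0.0846), and Eri1, an exonuclease that trims histone mRNA ends, by 0.72 (adjusted p = 0.0911).

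Of 21 histone chaperone and import genes 0 changed, beside 6.52% of all genes. An unadjusted p under 0.05 was reached by 7, beside 30.5% of all genes, and the median difference was 0.21. Asf1b, which carries new H3 and H4, was at 9.57 ± 0.08 in Bcl2l1-deleted tumours and 9.0 ± 0.27 in control tumours (SD, n = 4 each), a difference of 0.57 (adjusted p = 0.0612). Nasp, which holds the soluble H3 and H4 store, differed by 0.54 (adjusted p = 0.0618). Without control replicate 2 both were past the threshold, Asf1b at 0.48 (adjusted p = 0.047) and Nasp at 0.46 (adjusted p = 0.0448).

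Of 10 tested replication-independent variants, 2 of which (H1f8 and H1f10) are also members by symbol, 1 rose, beside 4.93% of all genes. Cenpa, the H3 variant of centromeres, had 9.37, 9.26, 9.20 and 9.10 in Bcl2l1-deleted tumours, against 8.80, 8.71, 8.55 and 8.64 in control tumours. Every Bcl2l1-deleted array was above every control array, and Cenpa rose by 0.56 (SE 0.14, adjusted p = 0.0415). It remained past the threshold without control replicate 1 or 2 and missed it, at an adjusted p of 0.0758 to 0.142, without any one of the other 6 arrays. With arrays centred on the genes tested its difference was 0.30 (adjusted p = 0.236). Macroh2a1, a large H2A variant of silent chromatin, differed by 0.34 (adjusted p = 0.127).

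DNA replication genes, which act in the same phase of the cycle, were fitted above 0 in 28 of 28 cases, beside 67.4% of all tested genes, with a median difference of 0.45, beside 0.06 for the histone members and 0.17 for all genes. Of the 28, 3 rose, beside 4.93% of all genes, 0 fell, and 18 had an unadjusted p under 0.05, beside 30.5% of all genes. Cdk2, the kinase that drives entry into S phase, had 9.09, 8.97, 9.05 and 8.89 in Bcl2l1-deleted tumours, against 8.49, 8.44, 8.39 and 8.37 in control tumours. The groups lay well apart, and Cdk2 rose by 0.58 (SE 0.13, adjusted p = 0.0342). Its partner Ccne1, cyclin E1, rose by 0.70 (adjusted p = 0.0403), and Prim2, a primase subunit, by 0.51 (adjusted p = 0.049). Pcna, the sliding clamp, was at 10.57 ± 0.06 in Bcl2l1-deleted tumours and 10.54 ± 0.06 in control tumours (SD, n = 4 each), a difference of 0.03 (adjusted p = 0.908). Calls in the list fell to 0 without any one of the Bcl2l1-deleted arrays or without control replicate 3 or 4, beside 0.129% to 2.97% of all genes. They numbered 5 without control replicate 1, beside 12.9% of all genes, and 9 without control replicate 2, beside 13.5%. With arrays centred on the genes tested the count was 0, beside 7.01% of all genes.

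**Figure D4:**
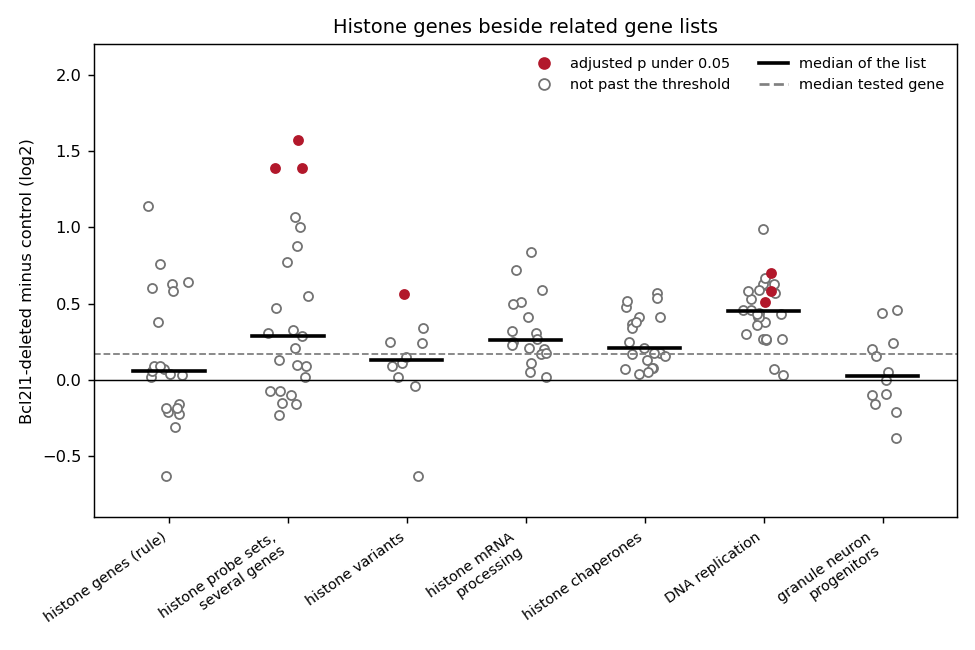
Fitted difference (log2, Bcl2l1-deleted minus control, vertical axis) of each tested gene or probe set in the histone genes, the shared histone probe sets and 5 related lists. Filled points passed an adjusted p of 0.05, open points did not, thick bars are list medians and the dashed line is the median tested gene at 0.17. The DNA replication bar stands at 0.45 and that of the histone genes at 0.06.

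Markers of granule neuron precursors showed small differences, while those of other cell types differed between the groups. Of 12 precursor markers 0 changed on all 8 arrays (limma, median difference 0.02). At an unadjusted p under 0.05 there was 1, Atoh1, beside 30.5% of all genes. Atoh1 was higher by 0.46 (adjusted p = 0.108), and by 0.38 without control replicate 2 (adjusted p = 0.115). Of the 12, 6 were fitted above 0, beside 67.4% of all tested genes. Pax6, a transcription factor of granule neuron precursors, differed by -0.38 (adjusted p = 0.298) and fell by 0.62 without control replicate 2 (adjusted p = 0.0356). Mki67, a proliferation marker, was at 10.38 ± 0.31 in Bcl2l1-deleted tumours and 10.33 ± 0.23 in control tumours (SD, n = 4 each, adjusted p = 0.872). Over all tested genes, 1.6% were called lower and 4.93% higher, the shares beside each count from all 8 arrays that follows. Of 12 markers of differentiating granule neurons, which have left the cell cycle, 7 fell and 0 rose. Their mean level was 6.42 to 7.56 in Bcl2l1-deleted tumours and 7.71 to 8.79 in control tumours. Of 14 microglia and macrophage markers, 9 rose and 0 fell, with a mean level of 8.15 to 8.37 in Bcl2l1-deleted tumours and 6.55 to 7.56 in control tumours. Leaving out 1 array moved the first count between 1 and 9 and the second between 0 and 12. The share of all genes called, in either direction, then moved between 0.129% and 13.5%. Of the oligodendrocyte markers 2 of 8 fell and 0 rose. Their mean level was 6.03 to 7.55 in Bcl2l1-deleted tumours and 7.20 to 8.56 in control tumours. Of the choroid plexus markers 2 of 5 fell and 0 rose. The mean level of these was 4.98 to 5.44 in Bcl2l1-deleted tumours and 6.40 to 6.70 in control tumours. Folr1, which fell, had a Bcl2l1-deleted mean of 4.32, below the dim limit of 4.38, and entered the test only through its control values. Leaving out 1 array moved the count of fallen oligodendrocyte markers between 0 and 4 and that of choroid plexus markers between 1 and 2. Cnp alone of the oligodendrocyte markers was fitted above 0, at 0.64 (adjusted p = 0.142). It was called higher without control replicate 1. The part of these cell types in the histone differences was not tested.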

How the data were processed

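Per the labels' protocols, a whole-transcript kit of Affymetrix was used to label total RNA from 8 tumours. The authors deposited log2 RMA expression values made with Partek, per the labels. RMA includes background correction, normalization and a summary over probes, and it compresses differences near background. Not given in the sources used here are its version, options and genome build. Groups follow the titles, since another label calls Bcl2l1 deleted in the controls too.

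Of 41345 probe sets, 23521 had a single symbol, 1814 several and 16010 none in the platform annotation, and 23328 matched RefSeq (GRCm38.p6) by Entrez identifier, which changed 0 symbols. The highest-mean probe set stood for each gene. Only genes whose mean exceeded the 30th percentile (4.38) entered the test. In R 4.3.3, limma 3.58.1 (lmFit, eBayes, two-sided, no covariate) tested 15526 genes with Benjamini-Hochberg adjustment over all of them, and each adjusted p and SE printed is from this fit unless a setting is named. A difference is the log2 value in Bcl2l1-deleted minus control tumours, not corrected for the median tested gene. In a simulation over 15526 genes, 64% of 100 changes of 1 log2 unit and 98% of 100 changes of 2 were called, beside 8 false calls. It drew independent normal values with the same SD in both groups and no array effects. The data had larger control SDs for 81.8% of genes and an outlying control array, so these shares do not carry over to them.

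Members and lists were chosen with earlier results of these data known. Named genes were Bcl2l1, of each histone class up to 6 members with the smallest p and up to 4 of the highest mean, up to 4 tested genes of each other list with the smallest p, and the members next to the dim limit. Slbp, Npat, Pcna and Mki67 and the shared probe sets were added after their values were seen. The shared probe sets were a setting chosen after seeing the data. Alternatives were other dim filters, fits, normalizations, covariates, probe set choices and leaving out each array.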

Additional observations from a re-analysis of the deposited data

Results flagged for a closer look

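Of 60 groups of 4 arrays (the 29 members and Bcl2l1 in either group), 2 held an array far from the others by Dixon's test, a number that chance alone gives at about 1 in 20 groups. H2ac21 was at 10.63 in Bcl2l1-deleted replicate 3, and at 11.09 to 11.16 on the other Bcl2l1-deleted arrays. H4c12 was at 11.86 in control replicate 2, and at 11.24 to 11.28 on the other control arrays.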

How the results depend on the processing

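Over all genes, 1013 passed an adjusted p of 0.05 in the fit as reported, 43 with a plain linear model, 548 with no dim filter, 200 with Xist as a covariate, 3494 with array weights and 1793 after centring on the genes tested without control replicate 2. Leaving out 1 array gave 20 to 2100, so the number of arrays limits every count. Histone members called higher were 0 as reported, 1 with quantile normalization (H2bc21), 3 with arrays centred on the median of all probe sets (H2bc21, H2bc9, H4c9), 1 with the receptor median as a covariate (H1f1), 4 with array weights, 2 with centring on the genes tested without control replicate 2, and 0 to 4 with 1 array left out. With the shared probe sets as features, a setting chosen after seeing the data, 3 of them passed. Members called lower were 0 as reported and 1 (H1f8) with centring on the genes tested, with or without control replicate 2. The cause of these shifts was not tested. Called genes split into 765 higher and 248 lower as reported, 390 and 699 with centring on the genes tested, 1337 and 171 with centring on all probe sets, and 273 and 404 once the receptor median was a covariate. Centring on the genes tested moved the median of all genes to -0.09 and that of the members to -0.20, and centring on all probe sets to 0.34 and 0.23. The members' median otherwise lay between -0.04 and 0.17. No called result changed sign, and 55 uncalled differences of named genes did.

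The shared replicate numbers did not pair the samples: deviations of same-numbered arrays correlated at -0.13 to 0.05. With the replicate number as a block, 508 genes and 0 members passed.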
